A study of Mus musculus with 2 samples.

Results

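The genes described here are 10 transport genes of the proximal tubule, given as a list of names: Slc22a6, Slc22a8, Slc22a12, Slc17a1, Slc17a3 and Slc34a1, which encode membrane carriers, and Lrp2, Cubn, Amn and Dab2, which encode an endocytic receptor complex and its adaptor. The deposited gene lists spell them in lower case (slc22a6, slc22a8, slc22a12, slc17a1, slc17a3, slc34a1, lrp2, cubn, amn and dab2). All 10 were among the 8930 genes listed for both libraries (9590 genes were listed for the control and 9545 for the exposed library). Droplet single-cell RNA sequencing was applied to dissociated whole kidneys at postnatal day 2 of the C57BL/6J strain, with 1 control library and 1 library from offspring exposed to maternal diabetes. The series design text calls the mice male and speaks both of pooled cells and of 1 kidney, so the number of animals behind a library cannot be told from it; the sources used here do not say how the mothers' diabetes was produced. With 1 library per group, exposure and library cannot be told apart, no difference below has a replicate check, and no test of exposure was made. The intervals are exact 95% intervals that cover counting error only and treat each unique molecular identifier (UMI, the tag that marks 1 captured transcript) as independent.

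The proximal tubule reclaims most of what the glomerulus filters and also secretes organic solutes from blood into urine. OAT1 (Slc22a6) and OAT3 (Slc22a8) sit in the basolateral membrane and take up organic anions, among them many drugs, from blood. URAT1 (Slc22a12) reabsorbs urate at the brush border, NPT1 (Slc17a1) and NPT4 (Slc17a3) are apical carriers of organic anions including urate, and NaPi-IIa (Slc34a1) is the main sodium-phosphate cotransporter of the brush border. Filtered proteins are bound by megalin (Lrp2) and cubilin (Cubn). Amnionless (Amn) brings cubilin to the membrane, and Dab2 couples megalin to the clathrin machinery. Nephrons still form in the newborn mouse kidney, so tubule cells of many ages are present together.

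Several of the carriers lie side by side in the genome (GRCm38, GENCODE vM21). Slc22a8 (chr19:8591254-8611835, plus strand) ends 6203 bases before Slc22a6 (chr19:8618039-8628299, plus strand), and Slc17a3 (chr13:23839434-23860716, plus strand) ends 7033 bases before Slc17a1 (chr13:23867750-23895730, plus strand). The other members are Slc22a12 (chr19:6535845-6543032, minus strand), Slc34a1 (chr13:55398187-55415592, plus strand), Lrp2 (chr2:69424340-69586065, minus strand), Cubn (chr2:13276338-13491813, minus strand), Amn (chr12:111271095-111276426, plus strand) and Dab2 (chr15:6299788-6440712, plus strand). The promoters of both neighbouring pairs and of Slc34a1 are shown because the members of each pair differed in how far apart the libraries stood. Each is a RefSeq window on GRCm38.p6, from 250 bases before to 50 bases after an annotated start, written 5′ to 3′ along the gene, with capitals marking a match to 1 of the 4 motifs searched. The windows are chr19:8617746-8618045 for Slc22a6, chr19:8592932-8593231 for Slc22a8, chr13:23870023-23870322 for Slc17a1 (the second of its windows), chr13:23839184-23839483 for Slc17a3 and chr13:55399398-55399697 for Slc34a1, all on the plus strand.
Slc22a6: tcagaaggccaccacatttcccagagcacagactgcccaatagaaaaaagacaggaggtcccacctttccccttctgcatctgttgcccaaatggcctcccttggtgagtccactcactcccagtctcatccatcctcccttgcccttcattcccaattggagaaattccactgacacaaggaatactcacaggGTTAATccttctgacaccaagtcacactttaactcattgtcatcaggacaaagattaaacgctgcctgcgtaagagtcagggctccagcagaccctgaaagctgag
Slc22a8: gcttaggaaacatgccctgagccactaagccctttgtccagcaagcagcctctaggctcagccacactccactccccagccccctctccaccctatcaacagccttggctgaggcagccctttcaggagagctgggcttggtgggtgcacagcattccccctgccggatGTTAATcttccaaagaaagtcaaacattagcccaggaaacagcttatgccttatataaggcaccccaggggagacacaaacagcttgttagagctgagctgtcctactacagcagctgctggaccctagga
Slc17a1: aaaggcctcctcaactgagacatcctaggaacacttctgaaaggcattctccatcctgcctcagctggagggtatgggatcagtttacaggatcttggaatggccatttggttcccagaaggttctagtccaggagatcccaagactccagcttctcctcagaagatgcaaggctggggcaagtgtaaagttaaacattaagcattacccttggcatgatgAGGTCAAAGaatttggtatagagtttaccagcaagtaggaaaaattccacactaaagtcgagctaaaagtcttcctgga
Slc17a3: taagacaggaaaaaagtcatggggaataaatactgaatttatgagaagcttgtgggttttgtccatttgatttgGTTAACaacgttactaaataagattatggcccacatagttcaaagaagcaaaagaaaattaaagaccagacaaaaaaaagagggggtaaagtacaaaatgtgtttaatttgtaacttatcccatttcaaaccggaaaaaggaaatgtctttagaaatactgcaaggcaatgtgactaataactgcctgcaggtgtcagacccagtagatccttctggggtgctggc
Slc34a1: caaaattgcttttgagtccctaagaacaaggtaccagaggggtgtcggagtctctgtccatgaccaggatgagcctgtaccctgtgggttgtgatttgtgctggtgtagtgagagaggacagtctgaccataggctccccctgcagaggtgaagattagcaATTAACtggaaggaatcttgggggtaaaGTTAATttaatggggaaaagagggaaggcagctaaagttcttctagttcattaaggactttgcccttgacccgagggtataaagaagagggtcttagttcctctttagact

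The motifs were the 6-base sequences GTTAAT and GTTAAC, and AGGTCAAAG and CAAAGTCCA, which are sequences of the type bound by HNF4; both strands were read, and GTTAAC reads the same on both. The search covered all 12 windows that matched the 10 members. Distances are counted from the RefSeq start of each window, which for Slc22a8, Slc17a1 and Slc34a1 lies well inside the gene span given above. GTTAAT began 56 bases before the Slc22a6 start, 81 bases before the Slc22a8 start, and 61 and, on the opposite strand, 89 bases before the Slc34a1 start. GTTAAC began 176 bases before the Slc17a3 start. The first Slc17a1 window held no match, and the second held AGGTCAAAG 29 bases before its start. Of the endocytic genes, Dab2 held GTTAAC 45 bases before the start of its first window and GTTAAT 65 bases before that of its second, while the windows of Slc22a12, Lrp2, Cubn and Amn held none of the 4 motifs. GTTAAT or GTTAAC was thus present for 5 of 10 members, 4 of 6 carriers and 1 of 4 endocytic genes. Among all 32851 promoter windows, 7.10% held GTTAAT, 3.05% GTTAAC, 9.85% either of these, 0.426% AGGTCAAAG and 0.475% CAAAGTCCA. These matches describe letters in a window and were not tied to binding or to the levels below.

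Both libraries were read through the 10 clusters that the authors assigned to each, named here from marker genes. The control library held 9071 cells with a median of 3523 UMIs and the exposed library 5494 cells with a median of 4346 UMIs, and 14 cell barcodes occurred in both. Proximal tubule markers, with the 10 members and the maturity genes left out, named 2 clusters in each library. Clusters 6 (471 cells, 16 of 17 markers detected) and 7 (148 cells, 15 markers) were proximal tubule-like in the control, and clusters 9 (174 cells, 17 markers) and 7 (148 cells, 15 markers) in the exposed library. In both libraries cluster 7 was rich in mitochondrial UMIs, with a median of 60.4% in the control and 62.7% in the exposed cells, against 13.3% in control cluster 6 and 11.6% in exposed cluster 9. Its cells were also shallower, with medians of 2075 and 2592 UMIs against 5644 and 7334. The mitochondria-rich cluster made up 23.9% of the 619 control and 46.0% of the 322 exposed proximal tubule-like cells, so the ratios between the libraries are also given within each kind of cluster.

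The members were concentrated in these clusters, with Dab2 as the exception. Proximal tubule-like cells were 6.82% of control and 5.86% of exposed cells and supplied 8.86% and 6.73% of all UMIs, yet they held a median over the 10 members of 87.0% of the members' UMIs in the control library and 82.9% in the exposed one. Slc17a1 was held most fully in the control, at 93.8% (92.4 to 95) of its 1376 UMIs, and stood at 86.3% (82.8 to 89.3) of 452 in the exposed library. Lrp2 stood at 84.2% (83.1 to 85.2) and 75.9% (74.3 to 77.5). Amn stood at 82.7% (81.0 to 84.3) and 72.8% (70.3 to 75.2). For each of the 10 members the exposed share was the lower of the pair, as was the share of all UMIs given above. The same count over all genes was not made, so it is not read as a trait of the members. For Slc22a12 the shares were 87.6% (84.1 to 90.6) and 87.0% (82.0 to 91.0), with overlapping intervals. The class holding the next largest share of each member was the differentiating nephron-like cluster, named from Wnt4, Lhx1 and other markers of early nephrons. It held 12.6% and 21.4% of Lrp2 UMIs and 14.3% and 25.1% of Amn UMIs. That cluster also carried 6 nephron progenitor markers, and in the control Aqp2, a collecting duct marker.

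**Figure D1:**
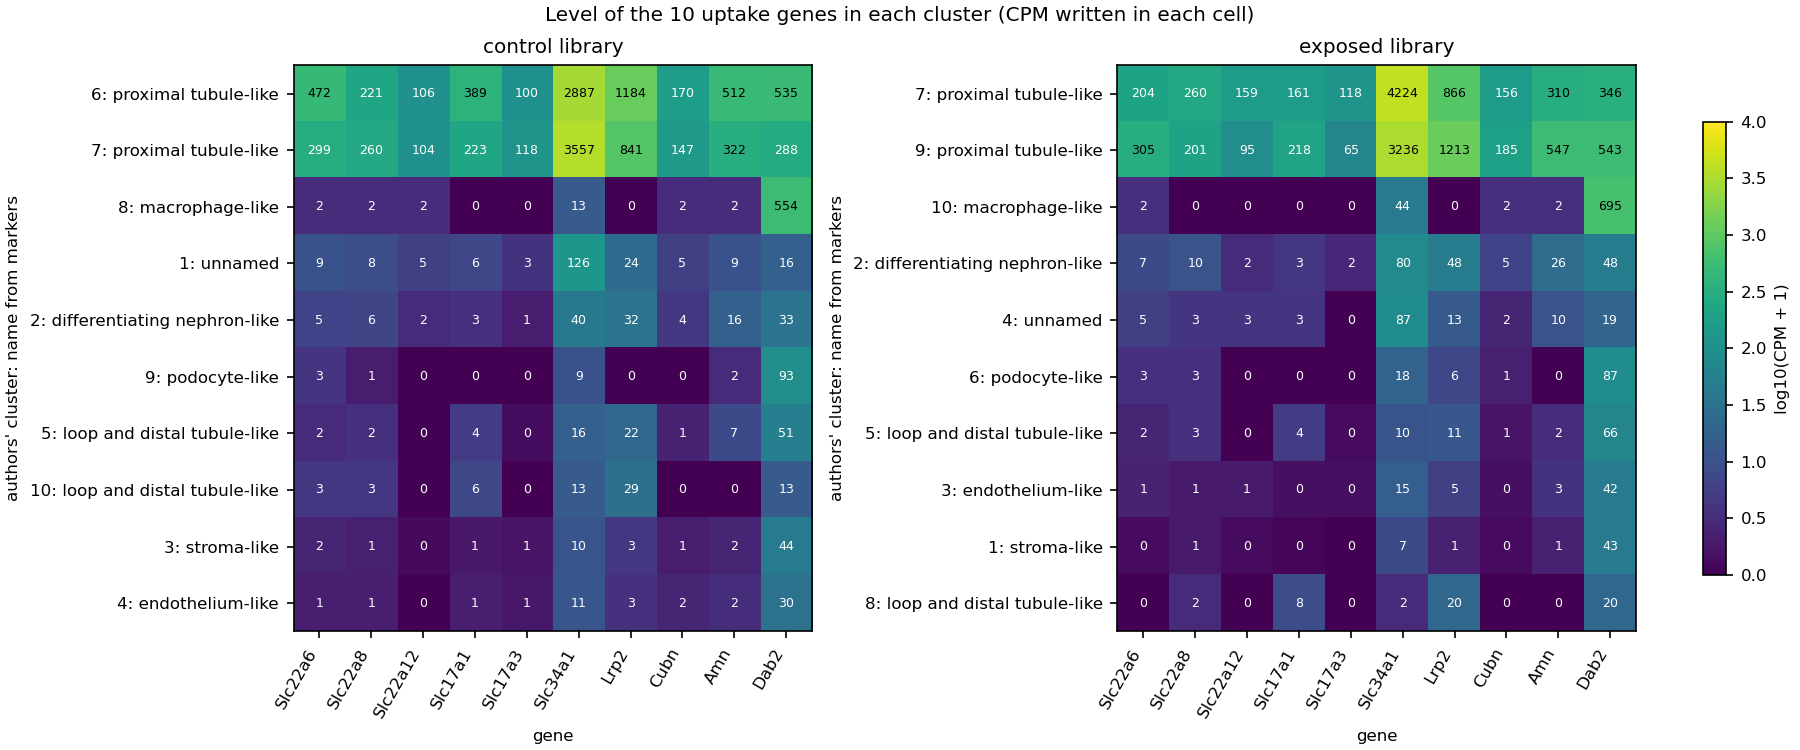
Level of each member in each of the authors' clusters, control library on the left and exposed library on the right. Colour is log10(CPM + 1), the CPM is written in each cell, and clusters are ordered by their mean over the members; Dab2 alone reached in macrophage-like cells the level it had in proximal tubule-like cells.

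Dab2 was divided among cell types. Proximal tubule-like cells held 53.0% (51.3 to 54.7) of its 3339 control UMIs and 38.2% (36.2 to 40.1) of its 2487 exposed UMIs. In CPM, the UMIs of a gene per 1000000 UMIs of the cells named, Dab2 stood at 554 (488 to 626) in control macrophage-like cells and 695 (616 to 781) in exposed ones, beside 510 (486 to 534) and 500 (468 to 532) in proximal tubule-like cells. A Dab2 UMI was found in 52.5% of the 181 control and 64.1% of the 117 exposed macrophage-like cells. The macrophage-like cluster of each library also carried the neutrophil markers S100a8, S100a9 and Retnlg, so these are not values of macrophages alone. Macrophage markers in the proximal tubule-like cells summed to 23.3 CPM in the control library and 25.8 CPM in the exposed one over 8 genes, with Lyz2 at 0 in both, C1qa and Cx3cr1 at 0 in the control. The other 9 members were at 13.0 CPM or less in control macrophage-like cells; in the exposed ones Slc34a1 stood at 44.0 CPM (26.1 to 69.6) from 18 UMIs.

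Shares in endothelium-like cells, which are not known for these carriers, served as the background, and their source was not tested. There a Slc34a1 UMI was found in 2.11% of control and 1.22% of exposed cells. The corresponding shares in proximal tubule-like cells were 94.2% (92.0 to 95.9) and 95% (92.1 to 97.1). Most single cells held several members at once. With each cell thinned to 2000 UMIs, which left 441 control and 167 exposed cells, the median was 5 of 10 members per cell in the cluster with few mitochondrial UMIs of either library. It was 4 of 10 in the mitochondria-rich cluster of either library (75 and 108 cells). Joint detection was read for 6 pairs of members in the cluster with few mitochondrial UMIs. Slc22a6 was found in 68.8% (62.2 to 74.9) of control cells with a Slc17a1 UMI and 44.4% (37.8 to 51.2) of those without one, though the genes are on different chromosomes. It was found in 64.9% (56.2 to 73.0) of control cells with a UMI of its neighbour Slc22a8 and 52.8% (47.0 to 58.5) of those without. The exposed shares for Slc17a1 were 54.7% (40.4 to 68.4) and 32.5% (24.0 to 41.9), and for Slc22a8 49.2% (35.9 to 62.5) and 34.3% (25.4 to 44.0). With and without Slc22a12, Slc22a6 was found in 59.6% and 55.7% of control and in 33.3% and 40.7% of exposed cells. Slc17a1 was found in 61.1% of control cells with its neighbour Slc17a3 and 47.2% of those without, and in 68.2% and 26.2% of exposed cells. Lrp2 was found in 86.7% of control cells with Cubn and 83.1% of those without, and in 95.8% and 77.3% of exposed cells. Cubn was found in 29.5% of control cells with Amn and 27.9% of those without, and in 27.1% and 32.7% of exposed cells.

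The balance of members in the mitochondria-rich cluster was different from that in the other one. For every 100 Slc34a1 UMIs, control cluster 6 held 41.0 Lrp2 UMIs (39.5 to 42.6) and the mitochondria-rich control cluster 23.6 (20.8 to 26.8). The exposed values were 37.5 (35.5 to 39.6) and 20.5 (18.2 to 23.0). Amn went from 17.7 (16.8 to 18.7) to 9.04 (7.40 to 11.0) per 100 Slc34a1 UMIs in the control library and from 16.9 (15.7 to 18.2) to 7.34 (6.09 to 8.78) in the exposed one. Dab2 went from 18.5 to 8.09 and from 16.8 to 8.20, and Slc22a6 from 16.3 to 8.41 and from 9.41 to 4.84. Slc17a1 went from 13.5 to 6.26 and from 6.73 to 3.81, and Cubn from 5.90 to 4.12 and from 5.73 to 3.70. Slc34a1 itself stood at 2887 CPM in control cluster 6 and at 3557 CPM in the mitochondria-rich control cluster. The exposed values were 3236 and 4224 CPM, so part of each fall lies in the Slc34a1 counts used as the divisor. Values were nearer for 3 carriers. Slc22a8 had 7.64 (7.06 to 8.26) against 7.30 (5.84 to 9.02) in the control library and 6.21 (5.50 to 6.98) against 6.15 (5.01 to 7.47) in the exposed one. Slc17a3 had 3.48 against 3.33 in the control and 2.02 against 2.79 in exposed cells, and Slc22a12 had 3.69 against 2.93 and 2.94 against 3.76. Slc22a8 was also among the 10 leading genes of the mitochondria-rich cluster in both libraries. The clusters were drawn from these same counts, so this is a description of them.

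Between the libraries, 3 carriers of organic anions had lower levels in exposed cells, with intervals below 1. The share of all genes with such intervals is not given here, so this count is not read as a trait of the members. Slc22a6 (OAT1) stood at 454 CPM in control and 283 CPM in exposed proximal tubule-like cells, a ratio of 0.623 (0.564 to 0.687). Slc17a1 (NPT1) stood at 372 and 205 CPM, a ratio of 0.553 (0.492 to 0.619). Slc17a3 (NPT4) stood at 102 and 76.9 CPM, a ratio of 0.752 (0.616 to 0.915). Of the other organic anion carriers, Slc22a8 (OAT3), which carries many of the same anions as OAT1, stood at 225 and 214 CPM with a ratio of 0.952 (0.842 to 1.07). Likewise Slc22a12 (URAT1) stood at 106 and 109 CPM with a ratio of 1.03 (0.861 to 1.22).

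The gap in Slc22a6 and Slc17a1 was visible in the share of cells as well as in the sums. In the cluster with few mitochondrial UMIs, with cells thinned to the same depth, a Slc22a6 UMI was found in 56.5% (51.7 to 61.1) of 441 control and 39.5% (32.1 to 47.4) of 167 exposed cells. A Slc17a1 UMI was found in 49.4% (44.7 to 54.2) and 31.7% (24.8 to 39.4). Slc22a8 was found in 30.4% (26.1 to 34.9) and 35.3% (28.1 to 43.1). Slc17a3 was found in 16.3% (13.0 to 20.1) and 13.2% (8.44 to 19.3), with overlapping intervals. Before thinning the Slc22a6 shares were 76.6% and 72.4% and the Slc17a1 shares 70.3% and 56.9%, at median depths of 5644 and 7334 UMIs. In endothelium-like cells thinned alike, each of these genes was found in at most 0.436% of the cells of either library. In the mitochondria-rich cluster the thinned shares had overlapping intervals. Slc22a6 was found there in 44.0% (32.5 to 55.9) of 75 control and 29.6% (21.2 to 39.2) of 108 exposed cells. For Slc17a1 the shares were 34.7% (24.0 to 46.5) and 25.9% (18.0 to 35.2).

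The phosphate carrier gene stood the other way by a small margin. Slc34a1 (NaPi-IIa) stood at 2955 CPM in control and 3453 CPM in exposed proximal tubule-like cells, a ratio of 1.17 (1.13 to 1.21). It was the only member with an interval above 1 in these cells, and the share of all genes with such an interval is not given here. The ratio was 1.12 (1.08 to 1.16) in the cluster with few mitochondrial UMIs and 1.19 (1.10 to 1.28) in the mitochondria-rich one. It was 0.994 (0.965 to 1.02) over all cells, of any cluster, with at least 2 maturity genes, an interval that includes 1 in cells chosen in part by Slc34a1 itself.

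The endocytic receptor genes were close to level. Lrp2 (megalin) stood at 1149 and 1137 CPM, a ratio of 0.990 (0.939 to 1.04), and Cubn (cubilin) at 168 and 179 CPM, a ratio of 1.07 (0.930 to 1.22). Amn stood at 492 and 495 CPM with a ratio of 1.01 (0.928 to 1.09), and Dab2 at 510 and 500 CPM with a ratio of 0.981 (0.905 to 1.06). These intervals bound the differences in counting alone and do not show that the groups are alike.

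**Figure D2:**
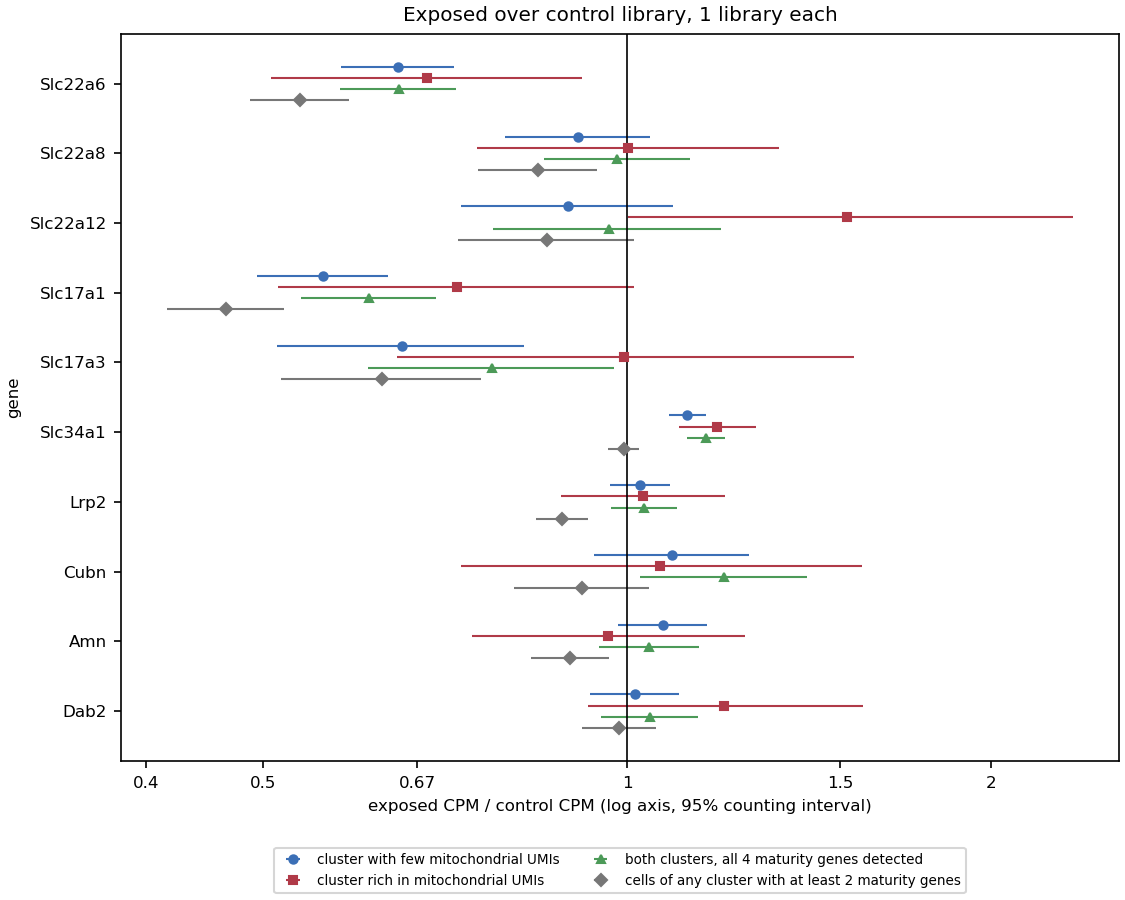
Ratio of exposed to control CPM for each member on a log axis, with 95% intervals of counting error, in 4 sets of cells: the proximal tubule-like cluster with few mitochondrial UMIs, the mitochondria-rich one, proximal tubule-like cells with all 4 maturity genes, and cells of any cluster with at least 2 maturity genes. Slc22a6 and Slc17a1 lie left of 1 in all 4 sets, and the Slc17a1 interval reaches 1 in the mitochondria-rich cluster.

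The Slc22a6 interval lay below 1 in both kinds of cluster. The difference between the clusters was not tested for any member, and the Slc17a3 interval in the mitochondria-rich one includes the 0.652 of the other. In the cluster with few mitochondrial UMIs the ratios were 0.646 (0.580 to 0.718) for Slc22a6, 0.560 (0.494 to 0.634) for Slc17a1 and 0.652 (0.513 to 0.821) for Slc17a3. In the mitochondria-rich cluster Slc22a6 stood at 299 and 204 CPM, a ratio of 0.683 (0.508 to 0.918). Slc17a1 stood there at 223 and 161 CPM, a ratio of 0.723 (0.514 to 1.01), and Slc17a3 at 118 and 118 CPM, a ratio of 0.994 (0.645 to 1.54) from 42 and 49 UMIs. Slc22a12 stood at 104 and 159 CPM in that cluster, a ratio of 1.52 (1.00 to 2.34) from 37 and 66 UMIs, against 0.893 (0.728 to 1.09) in the other. With 10 CPM added, 2 members were at least 1.5-fold lower and 0 higher in the cluster with few mitochondrial UMIs, beside 0.944% and 0.515% of 6993 genes. In the mitochondria-rich cluster 0 members were past that fold in either direction, beside 10.8% lower and 2.23% higher of 1210 genes.

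Counted over the set, 6 members were lower and 4 higher in exposed proximal tubule-like cells, and 60.6% of the 7128 genes measured (those reaching 50 UMIs when the libraries are summed) were lower. With 10 CPM added to each value, 2 members, Slc22a6 and Slc17a1, were lower by at least 1.5-fold, against 1.07% of all genes, and 0 members were higher by that much, against 0.267%. The median log2 ratio was -0.02 over the 10 members and -0.05 over all genes. It was -0.22 over the 6 carriers and -0.00 over the 4 endocytic genes. When values were scaled without the mitochondrially encoded genes, which took up 19.9% of control and 24.9% of exposed UMIs in these cells, 3 members were lower, namely Slc22a6, Slc17a1 and Slc17a3, beside 45.7% of the 7115 genes so scaled. That scaling raises every log2 ratio by about 0.09 and so takes members with ratios near 1 across 0.

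**Figure D3:**
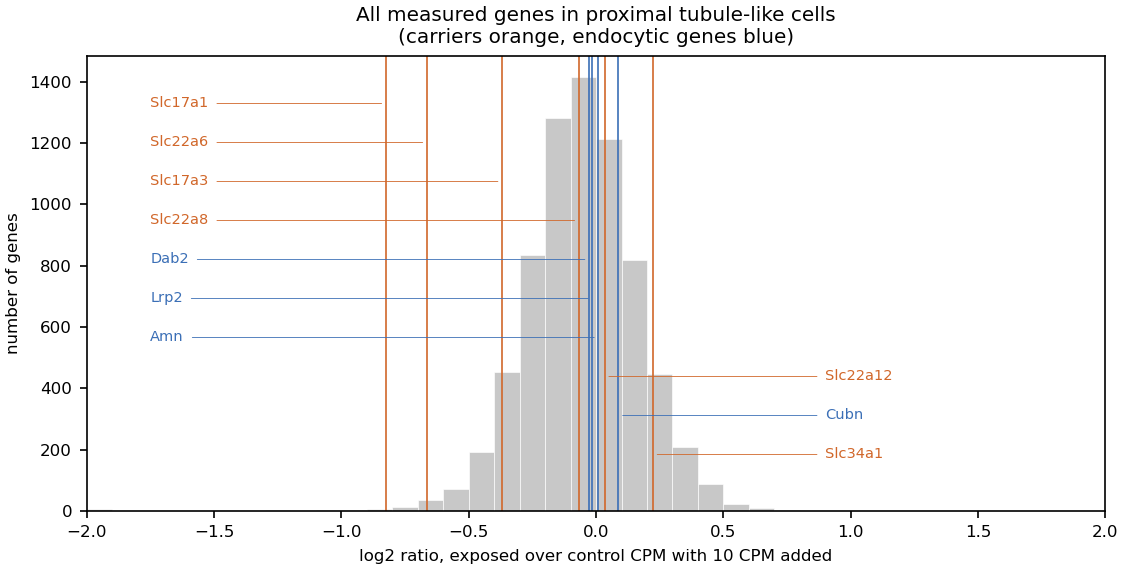
Number of genes by log2 ratio of exposed over control CPM (10 CPM added) in proximal tubule-like cells, for all 7128 genes with at least 50 UMIs; the few ratios beyond the axis are counted in its end bars. Lines mark the members: Slc17a1 and Slc22a6 lie in the sparse left tail, and the 4 endocytic genes lie near the peak.

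The number of Slc34a1, Spp2, Miox and Fbp1 detected in a cell served as a maturity score from 0 to 4. Spp2 encodes a secreted phosphoprotein, Miox the first enzyme of inositol breakdown and Fbp1 an enzyme of gluconeogenesis, and Slc34a1 is itself a member, so its own levels by score describe the score. Among control proximal tubule-like cells 9, 30, 76, 146 and 358 had scores of 0 to 4. Among exposed ones 3, 10, 47, 96 and 166 did. At least 3 genes were detected in 81.4% of both the control cells (78.1 to 84.4) and the exposed cells (76.7 to 85.5), a difference of -0.055 points (-5.49 to 5.00). With cells thinned to 2000 UMIs 77.7% and 69.5% of cells qualified, a difference of -8.26 points (-14.9 to -1.87). Thinning also left out cells under 2000 UMIs, 103 of the 619 control and 47 of the 322 exposed ones, most of them in the mitochondria-rich cluster (73 and 40), and the parts of depth and of the cells left out were not told apart. Within the cluster with few mitochondrial UMIs the thinned cells qualified at 80.0% and 78.4%, a difference of -1.60 points (-9.27 to 5.24). In the mitochondria-rich cluster they were 64.0% and 55.6%, a difference of -8.44 points (-22.1 to 6.01).

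Members differed in how steeply they stood across the score. In control cells Slc22a6 stood at 157 CPM over scores 1 and 2 and at 529 CPM at score 4, a ratio of 3.37 (2.53 to 4.60). In exposed cells it stood at 88.0 and 342 CPM, a ratio of 3.89 (2.37 to 6.87). Slc17a1 had ratios of 1.80 (1.41 to 2.33) and 1.76 (1.18 to 2.74), and Dab2 of 1.99 (1.59 to 2.51) and 1.99 (1.5 to 2.69). Slc22a12 was flat or inverse, with ratios of 0.738 (0.535 to 1.04) and 0.809 (0.516 to 1.32), and Slc17a3 had ratios of 1.36 (0.893 to 2.16) and 0.749 (0.461 to 1.28). Lrp2 stood at 961 and 1181 CPM in the control, a ratio of 1.23 (1.09 to 1.39), and at 891 and 1220 CPM with exposure, a ratio of 1.37 (1.16 to 1.62). With 10 CPM added, 4 of the 9 members outside the score in the control library and 6 of 9 in the exposed one were at least 1.5-fold higher at score 4, beside 16.6% of 6063 and 53.0% of 3984 genes measured. Median mitochondrial UMIs differed by score too, at 27.4%, 40.1% and 15.4% for scores 1, 2 and 4 in control cells. In exposed cells they were 64.9%, 66.6% and 20.8%. The score counts detected genes, and median depth rose with it, at 1806, 2390 and 5982 UMIs for these scores in control cells. In exposed cells it was 2228, 2798 and 5366 UMIs. The parts of depth and of mitochondrial UMIs in these ratios were not tested.

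**Figure D4:**
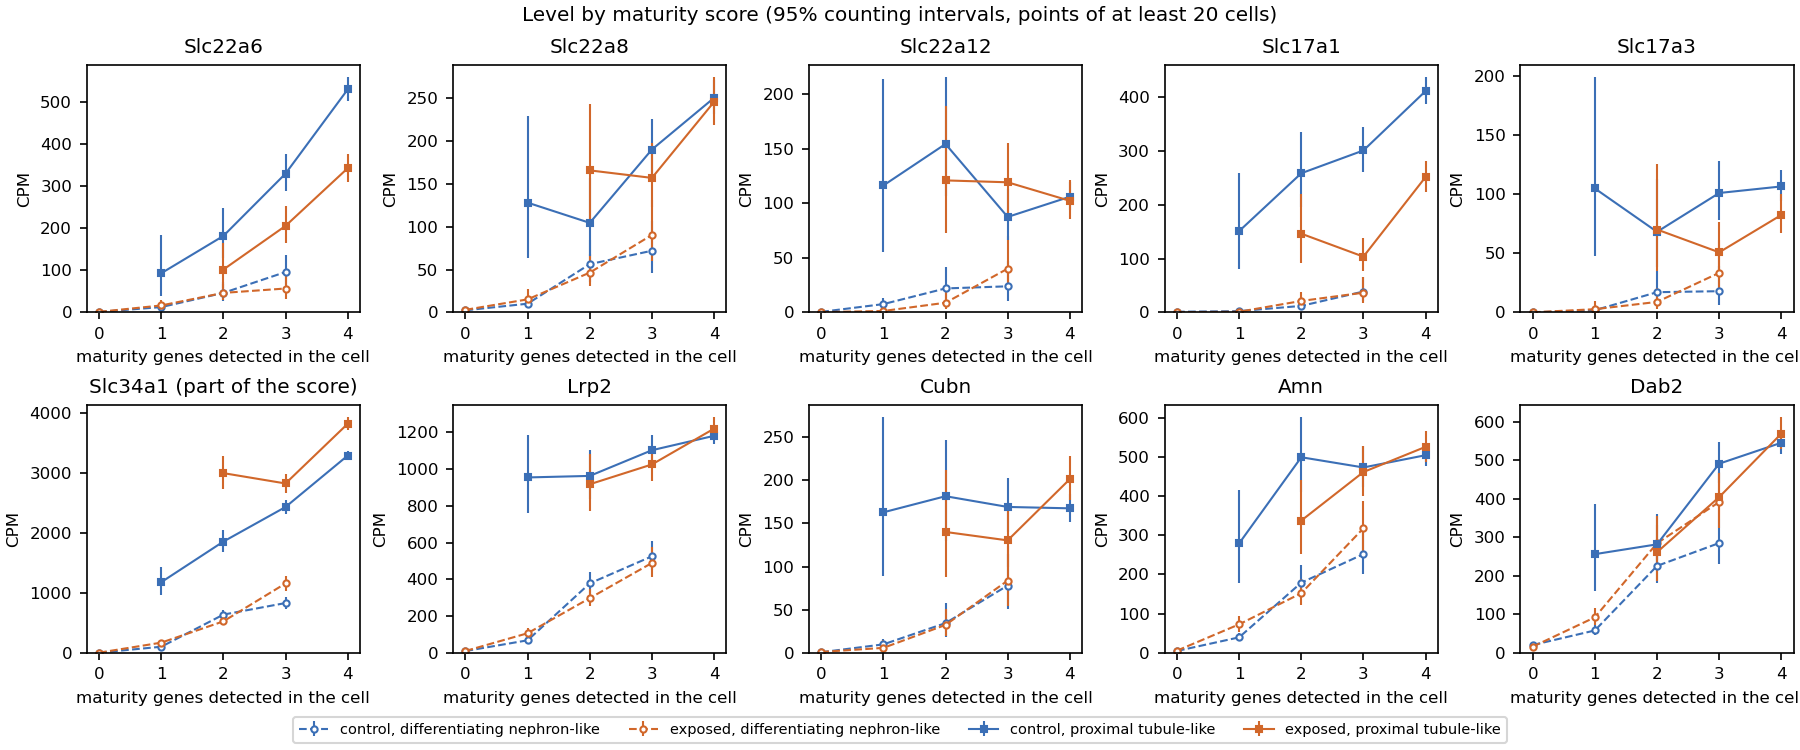
CPM of each member by the number of maturity genes detected in a cell, for proximal tubule-like cells (filled squares) and differentiating nephron-like cells (open circles) of the control (blue) and exposed (orange) libraries, with 95% counting intervals and only groups of at least 20 cells. Exposed Slc22a6 and Slc17a1 lie below control in proximal tubule-like cells at scores 3 and 4, and Lrp2, Amn and Slc22a8 overlap between the libraries at score 4.

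At the same score the gap in Slc22a6, Slc17a1 and Slc17a3 was still present. The other carriers did not share it at score 4. Slc22a8 had a ratio of 0.981 (0.853 to 1.13), Slc22a12 of 0.965 (0.775 to 1.20) and Slc34a1 of 1.16 (1.12 to 1.20). At score 4 Slc22a6 stood at 529 CPM in the control library and 342 CPM in the exposed one, a ratio of 0.647 (0.579 to 0.722), and Slc17a1 at 412 and 252 CPM, a ratio of 0.612 (0.537 to 0.695). Slc17a3 stood at 106 and 82.4 CPM, a ratio of 0.774 (0.610 to 0.975). Cubn stood at 168 and 202 CPM, a ratio of 1.20 (1.02 to 1.41). Among all 6655 genes measured at score 4, 1.55% were at least 1.5-fold lower and 0.706% at least 1.5-fold higher. At score 3 Slc17a1 stood at 301 and 104 CPM, a ratio of 0.345 (0.245 to 0.475), Slc22a6 at 330 and 206 CPM, a ratio of 0.624 (0.484 to 0.798), and Slc17a3 at 101 and 50.8 CPM, a ratio of 0.504 (0.299 to 0.818). Cubn had there a ratio of 0.770 (0.553 to 1.06) and Dab2 of 0.823 (0.683 to 0.989), against 1.04 (0.951 to 1.14) for Dab2 at score 4. At score 3, 5.41% of 3327 genes were lower and 2.25% higher by that fold. When the libraries were reweighted to 1 common mix of scores, the log2 ratio was -0.64 for Slc22a6, -0.82 for Slc17a1, -0.23 for Slc17a3 and 0.27 for Slc34a1, and the median over the members was -0.03. Of the other score genes, Fbp1 stood at 1001 and 686 CPM in all proximal tubule-like cells, a ratio of 0.685 (0.642 to 0.730), Miox at 804 and 680 CPM, a ratio of 0.846 (0.791 to 0.904), and Spp2 at 3307 and 3493 CPM, a ratio of 1.06 (1.02 to 1.09).

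The score also picked out cells outside the proximal tubule-like clusters. Of the cells with at least 2 maturity genes, 804 in the control library and 470 in the exposed one, 580 and 309 were proximal tubule-like, 120 and 104 differentiating nephron-like, and 73 and 37 lay in an unnamed cluster made up almost wholly of mitochondrial UMIs. Over all of these cells 10 of 10 members were lower in the exposed library, where 43.7% of 7680 genes were, with ratios of 0.536 (0.487 to 0.588) for Slc22a6, 0.465 (0.416 to 0.520) for Slc17a1, 0.626 (0.517 to 0.756) for Slc17a3, 0.844 (0.753 to 0.945) for Slc22a8, 0.883 (0.841 to 0.928) for Lrp2 and 0.897 (0.833 to 0.967) for Amn. The intervals of the other 4 include 1, with ratios of 0.858 for Slc22a12, 0.917 for Cubn, 0.985 for Dab2 and 0.994 for Slc34a1. Past 1.5-fold, with 10 CPM added, 2 members were lower and 0 higher, beside 0.781% and 0.768% of genes. Differentiating nephron-like cells were 14.9% of the control and 22.1% of the exposed cells so chosen, and the part of this mix in the ratios was not tested.

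Inside the differentiating nephron-like cluster, the median of the endocytic genes stood nearer to the proximal tubule-like level than that of the carriers. Single genes of these groups were not all separated in cells with at least 2 maturity genes. The Slc22a8 intervals overlapped those of Lrp2, Amn and Cubn in both libraries, and exposed Slc22a8 stood above Lrp2 and Cubn. Cubn also overlapped Slc17a3 and Slc22a12 in both libraries, and in the exposed library Slc22a6 and Slc17a1 too, so there it overlapped every carrier outside the score. Slc22a12 overlapped Lrp2, exposed Slc17a3 overlapped Lrp2 and Amn, and control Slc22a8 overlapped Dab2. Lrp2 stood at 8.95, 67.4, 378 and 525 CPM at scores 0 to 3 in the control (2983, 232, 76 and 39 cells) and at 9.20, 106, 297 and 489 CPM in the exposed library (1758, 101, 65 and 31 cells). Slc22a6 stood at 1.31, 12.8, 46.6 and 96.0 CPM in the control library and at 1.56, 16.7, 46.5 and 56.9 CPM in the exposed one. Median mitochondrial UMIs lay between 4.94% and 7.67% at these scores. In cells with at least 2 maturity genes, Lrp2 was at 37.7% (33.7 to 42.1) of its level in the control cluster with few mitochondrial UMIs, and at 35.4% (31.8 to 39.4) of the exposed one. Amn was at 41.6% (35.3 to 48.9) and 39.2% (33.6 to 45.6), Cubn at 31.9% (22.7 to 43.7) and 28.9% (21.2 to 38.9), and Dab2 at 46.4% (39.7 to 53.9) and 67.4% (59.4 to 76.3). Slc22a6 was at 15.6% (11.8 to 20.3) and 19.2% (14.4 to 25.3), and Slc17a1 at 7.31% (4.56 to 11.1) and 15.1% (10.2 to 21.6). Slc22a8 came closest among the 5 carriers outside the score, at 30.4% (22.5 to 40.4) and 37.1% (28.4 to 47.9). Slc17a3 was at 19.3% (10.7 to 32.3) and 30.4% (17.8 to 49.5), the latter above Cubn, and Slc22a12 at 21.8% (12.8 to 35.1) and 20.9% (12.4 to 33.5). The medians were 19.3% and 20.9% over those 5 carriers and 39.7% and 37.3% over the 4 endocytic genes.

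**Figure D5:**
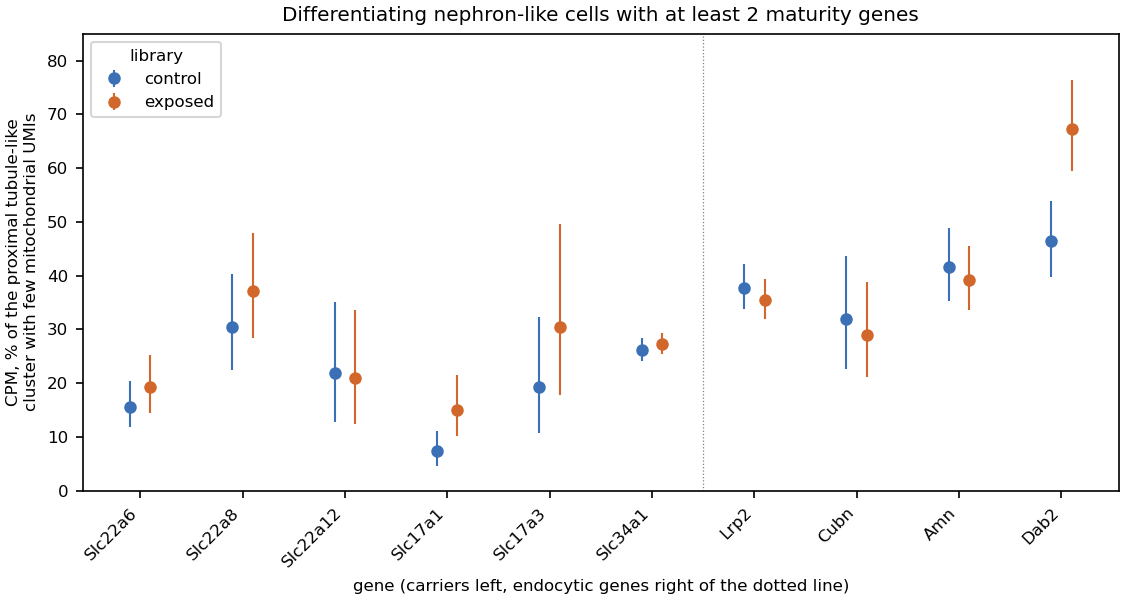
CPM of each member in differentiating nephron-like cells with at least 2 maturity genes, as a percent of its CPM in the same library's proximal tubule-like cluster with few mitochondrial UMIs, with 95% counting intervals (120 control and 104 exposed cells). The 4 endocytic genes lie between 28.9% and 67.4%, a range that also holds Slc22a8 in both libraries and exposed Slc17a3. Slc17a1 lies lowest in both libraries.

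The authors' doublet scores were read beside these values. A hybrid doublet score over 1 was given to 25% of the 120 control and 14.4% of the 104 exposed cells, against 9.19% and 6.66% of the cluster's cells with no maturity gene. Without those cells the medians were 20.5% and 23.8% over the 5 carriers and 46.4% and 40.7% over the 4 endocytic genes. Choosing cells by at least 1 of Spp2, Miox and Fbp1, which like the doublet filter was added with the data already seen, gave 9.39% and 16.7% over the 5 carriers and 20.1% and 29.7% over the 4 endocytic genes.

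Likeness to the members was read over the 20 clusters. For the mean of the 6 carriers the genes most alike were Cdhr2, Acsm2, Slc23a1, Cyp2d26 and Agxt2, with Pearson's r from 0.995 to 0.997. For the mean of Lrp2, Cubn and Amn they were Slc2a2, Fut9, Cyp4a31, Cldn2 and Slc27a2, with r from 0.993 to 0.994. Cdhr2 is a protocadherin of the brush border, Slc23a1 a vitamin C carrier, Slc2a2 the glucose carrier GLUT2 and Cldn2 a tight junction protein of the proximal tubule. The 20 points share libraries and depths, so r is a description. Each r rests on the contrast of 4 proximal tubule-like clusters with 16 others.

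Of the related genes of these pathways, 1 was past 1.5-fold between the libraries, and the counts below stand beside the 60.6% of all 7128 genes that were lower, with a median log2 ratio of -0.05. Of 19 other organic ion carriers measured in proximal tubule-like cells, 13 were lower and 6 higher in the exposed library, with 0 lower and 1 higher past 1.5-fold and a median log2 ratio of -0.14. The lowest were Slc22a2 (OCT2, an organic cation carrier), at 152 and 108 CPM with a log2 ratio of -0.46, and Slc13a2, a citrate carrier, at 67.4 and 46.9 CPM with -0.44. The highest were Slc22a23, at 23.0 and 46.9 CPM with 0.78, and Slc16a9 at 21.9 and 28.4 CPM with 0.27. Of 12 phosphate and scaffold genes, 9 were lower and 3 higher with none past the fold and a median of -0.09. Their ends were Fgfr1 (-0.38) and Slc9a3r2 (-0.22), and Slc9a3 (0.25) and Slc9a3r1, the scaffold NHERF1 that anchors NaPi-IIa (0.06). Of 32 endocytic and lysosomal partners, 25 were lower and 7 higher, none past the fold, with a median of -0.09. Atp6v1a, a subunit of the proton pump that acidifies endosomes, stood at 376 and 270 CPM (-0.47) and Clcn5, the endosomal chloride-proton exchanger, at 125 and 92.1 CPM (-0.40), while Gipc1 (0.20) and Ctsb (0.10) were highest. Of 9 proximal tubule transcription factors, 6 were lower and 3 higher, none past the fold, with a median of -0.15. The highest were Rxra, at 23.0 and 27.9 CPM (0.20), and Maf, at 406 and 459 CPM (0.17).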

How the data were processed

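The authors deposited UMI counts, whole numbers without normalization, for every gene in every cell of a library. Per the submitters' processing notes, Cell Ranger 2.2.0 and build mm10 were used; the 10x Chromium 3' v2 kit is named in the labels' protocols. The authors' table of cells gives, per the file headers, the percent of UMIs from mitochondrial genes, doublet scores (score values computed by the authors) and a cluster number. The authors' log2 values were not used. All deposited cells were kept, no doublet caller was run, and the alternatives left out cells with a hybrid score over 1 or over 25% mitochondrial UMIs. Python 3.11.15, numpy 2.4.6, scipy 1.17.1 and pandas 2.3.3 were used.

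Clusters were named where at least 3 markers of a class were detected (a UMI in at least 10% of cells and a CPM at least 2 times that of the library's remaining cells). UMIs of 8930 shared genes (99.4% of each library's total of 39442253 control and 28381167 exposed UMIs) were summed per cluster or class and scaled to CPM. Log2 ratios have 10 CPM added, which understates the change of low genes; genes needed 50 UMIs over both libraries. Counts have exact Poisson, ratios exact conditional binomial, shares Clopper-Pearson and differences of shares Newcombe intervals. The interval of a ratio was tested on simulated counts drawn independently, which does not cover the clustering of UMIs in cells. Cells over 25% mitochondrial UMIs were 17.0% of control and 12.6% of exposed cells. All 10 members and the 3 other score genes are named, with the 2 highest and 2 lowest genes of each related list and the 5 genes most alike in pattern. The 2 lowest of the transcription factor list are not reported here. The members and lists were chosen with earlier results of these data known. Intervals treat UMIs as independent and are therefore narrower than the spread between cells warrants: the 33 exposed proximal tubule-like cells with most Slc17a1 UMIs held 55.1% of Slc17a1 UMIs.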

Additional observations from a re-analysis of the deposited data

Results flagged for a closer look

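Slc34a1 was found in cells that the proximal tubule-like comparisons do not use, though 73 control and 37 exposed cells of the same cluster are among the cells with at least 2 maturity genes. In the unnamed cluster whose UMIs were almost wholly mitochondrial (median 97.9% in the control library and 98.0% in the exposed one), a Slc34a1 UMI was present in 13.8% (11.1 to 16.9) of 573 control cells and in 19.0% (13.4 to 25.8) of 168 exposed cells, above the 2.11% and 1.22% of endothelium-like cells. Both were singled out because the signal lies in cells outside the main comparison. No proximal tubule marker reached the detection rule there. Slc34a1 stood at 126 and 87.2 CPM, or at 3661 and 3463 CPM once mitochondrially encoded genes were left out of the total. For every 100 Slc34a1 UMIs this cluster held 18.8 (13.6 to 25.5) Lrp2 UMIs in the control library and 14.5 (5.98 to 30.7) in the exposed one.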

How the results depend on the processing

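The log2 ratios of Slc22a6 (-0.87 to -0.53), Slc17a1 (-1.05 to -0.44) and Slc17a3 (-0.58 to -0.01) were below 0 in 11 of 11 settings. The settings reuse the same cells, and leaving out the minimum count could only return the main values, so they are not independent checks. Slc17a3 came nearest to 0 in the mitochondria-rich cluster, with a ratio of 0.994 (0.645 to 1.54), so no direction is read there. The median over the members (main value -0.02) ranged with the cells counted and was -0.19 in cells with at least 2 maturity genes. There 10 members were lower, beside 43.7% of genes. When scaled without mitochondrially encoded genes, which raises every log2 ratio by about 0.09, 3 members were lower, beside 45.7% of genes. Slc34a1 stood at -0.0092 in cells with at least 2 maturity genes, from 0.22, with a ratio interval that includes 1 (0.965 to 1.02), so no direction is read there. The difference in cells with at least 3 maturity genes was -8.26 points after thinning. At the deposited depth it was 7.06 without cells over 25% mitochondrial UMIs. In settings added after the data were seen, also at the deposited depth, it was 6.29 in the cluster with few mitochondrial UMIs and 6.76 in the mitochondria-rich one. Exposed cells of both clusters had the higher median depth. With thinned cells the differences in these clusters were -1.60 (-9.27 to 5.24) and -8.44 (-22.1 to 6.01). Cells of any cluster with at least 2 maturity genes held a median of 91.6% of the members' control UMIs and 92.8% of the exposed ones, and proximal tubule-like cells held 77.7% in the exposed library without cells over 25% mitochondrial UMIs. Of 35 recomputed values of the main summary results, 25 stayed, 10 moved and 0 reversed. For single members, 116 of 140 recomputed values stayed within their intervals, 23 moved and 1 reversed. The values without a minimum count are among those that stayed and could do nothing else. The causes of these shifts were not tested. No paired analysis was possible because each group has 1 library, and no library could be left out for the same reason. Depth limits Slc17a3 and Slc22a12 most, with 42 and 37 control UMIs in the mitochondria-rich cluster.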
